A study of Rattus norvegicus with 23 samples.

Results

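Portosinusoidal vascular disease is a liver disorder in which the small portal branches and sinusoids are abnormal without cirrhosis, and 2 rat models of it were compared with the same controls. The genes described are those that differed from Control in the same direction in both models and, separately, those that differed in opposite directions. RNA was sequenced from liver of Sprague Dawley rats as 23 libraries. Control (6 libraries) was labelled as receiving no treatment. LPS (7 libraries) received lipopolysaccharide, the outer-membrane glycolipid of Gram-negative bacteria, at 1 mg/kg into the portal circulation, 2 times per week for 8 weeks, through a catheter placed by surgery under isoflurane. Selfox (10 libraries) ate a diet enriched in selenium over 8 weeks, with 8 intravenous injections, 1 per week, of oxaliplatin (3 mg/kg), 5-fluorouracil (25 mg/kg) and folinic acid (45 mg/kg). Strain, tissue and kit were the same in all 3 groups, while surgery and catheter were given for LPS only and diet and drugs for Selfox only, so the parts of each treatment cannot be told apart. The labels state neither sex nor age, nor that each library is a different rat, so p-values measure the spread between libraries.

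All 23 libraries entered one edgeR quasi-likelihood fit, and the main contrast was the mean of the LPS and Selfox log2 levels minus Control. Of 15079 genes tested, 11200 had the same sign in each model against Control, 5766 higher in both and 5434 lower in both. The other 3879 had opposite signs, with 1906 higher in LPS and lower in Selfox and 1973 the reverse. A sign alone says little for a gene near 0, and the median log2 fold change of all genes was 0.0064 in the average contrast. At a Benjamini-Hochberg adjusted p below 0.05 the average contrast called 1718 genes higher (11.4% of those tested) and 1843 lower (12.2%), 482 of them by at least 2-fold. Of these 3561 genes 3534 had the same sign in both models and 27 did not, while 122 were called in the average contrast and in neither model alone. Opposite signs cancel in this average, so the split of 3534 and 27 is largely set by the contrast. In the separate contrasts LPS was higher than Control for 1163 genes (7.71%) and lower for 1054 (6.99%), and Selfox was higher for 14.2% of the genes tested and lower for 2250 (14.9%). Both contrasts use the same 6 controls, so a control library that stands apart moves both in the same direction. The spread of the controls also enters both, which favours the same sign, so the shares of same and opposite signs are counts and not a result. Called in both models were 759 genes with higher levels (5.03%) and 684 with lower levels (4.54%), against 14 with opposite signs (0.0928%). Of the 1443 same-sign genes, 783 had the larger difference in Selfox and 660 in LPS, and for 73 the difference between Selfox and LPS passed the test as well. The median size among the 759 was 0.56 on the log2 scale in LPS and 0.59 in Selfox, and among the 684 it was 0.45 and 0.47.

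**Figure D1:**
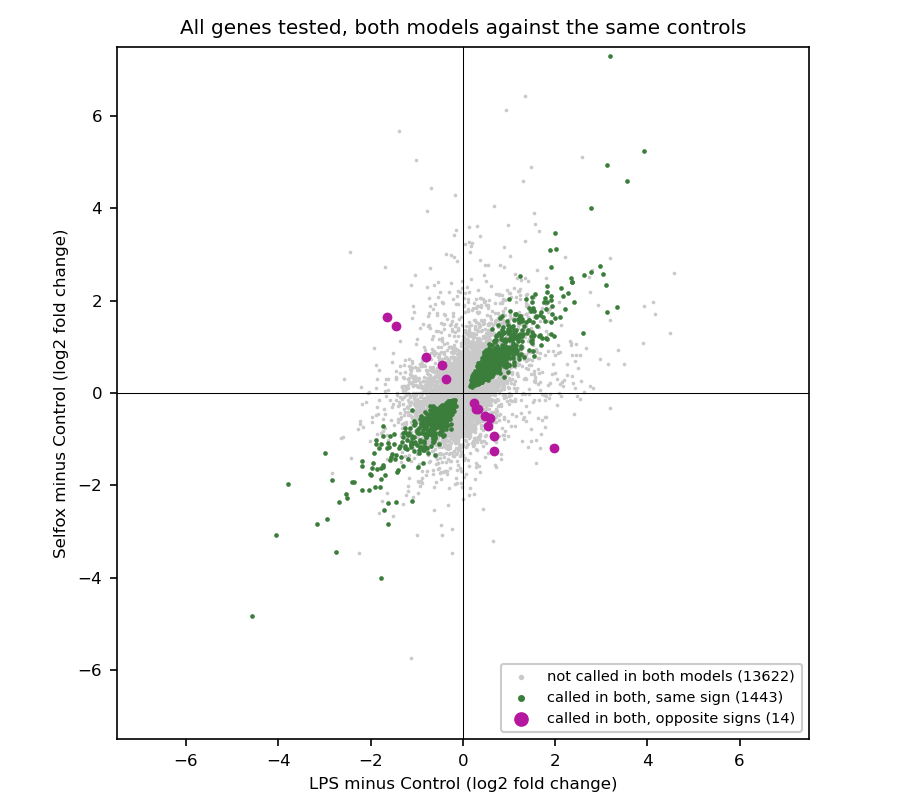
Log2 fold change against Control of each of the 15079 genes tested, LPS on the horizontal and Selfox on the vertical axis. The 1443 green genes were called in both models with the same sign, and the 14 purple genes were called in both with opposite signs. Both axes use the same 6 controls.

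Liver cells switch between making and burning fat. After feeding, the transcription factors SREBP1c and SREBP2, helped by insulin, turn on the enzymes of fatty acid and cholesterol synthesis, and during fasting the nuclear receptor PPARa turns on the enzymes that import fatty acids into mitochondria and peroxisomes and oxidise them. Periportal hepatocytes hold most of the urea cycle and amino acid breakdown, while chaperones and the proteasome look after the folding and removal of proteins. Interferon-stimulated genes encode antiviral proteins, and Kupffer cells, the resident macrophages of the sinusoid, take up material carried in by portal blood.

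The proximal promoters of the genes that rose and fell together are shown first, because the factors named above bind short DNA words there. RefSeq promoter windows (build GRCr8) were found for 10307 of the 15079 genes tested, and the 250 bases upstream of each annotated start were searched on both strands. The CCAAT box (CCAAT), bound by NF-Y, which acts beside SREBP at many lipid genes, was in the window of 14 of 17 cholesterol genes and 11 of 16 lipogenic genes with a promoter, against 35.6% of all tested genes and 34% of all 33469 windows of the table. Among genes called higher in both models it was in 40%, and among those called lower in 34.7%. Of the list genes called higher in both models it was in 7 of 10 cholesterol genes and 9 of 11 lipogenic genes. In the windows of Fdps (chr2:176804817-176804956, minus strand), Pnpla3 (chr7:117173398-117173527, plus strand) and Acacb (chr12:48138215-48138344, minus strand), which rose in both models, the CCAAT letters or their complement are in capitals.
Fdps: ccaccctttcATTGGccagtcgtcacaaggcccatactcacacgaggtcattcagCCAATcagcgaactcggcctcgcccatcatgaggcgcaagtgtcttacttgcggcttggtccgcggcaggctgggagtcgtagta
Pnpla3: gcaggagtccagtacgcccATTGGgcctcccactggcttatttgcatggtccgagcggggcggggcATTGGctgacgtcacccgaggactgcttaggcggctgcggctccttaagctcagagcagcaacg
Acacb: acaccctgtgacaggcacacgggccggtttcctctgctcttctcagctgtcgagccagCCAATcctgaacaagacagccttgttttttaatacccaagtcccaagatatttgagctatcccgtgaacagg
The sterol regulatory element core (TCACNCCAC) was in 0 of these 17 and 16 windows and in 0.999% of those of all tested genes, which says only that these letters are not in this stretch. A peroxisome proliferator response element was searched after values had been seen. It was in 1 of 20 windows of the fatty acid oxidation list and in 0.31% of all tested genes. That 1 window belongs to Fabp1, which had the higher sign in LPS and the lower in Selfox and was not called in both models. The paired heat shock word (GAANNTTC), searched after the fall of heat shock genes had been seen, was in 7 of 10 windows of the heat shock list and in 4.89% of all tested genes. Of these 7 genes 4 had the lower sign in both models, 2 of them called in both, 1 had the higher sign in both, and 2 were lower in LPS and higher in Selfox. It is in capitals in the windows of Hspa8 (chr8:50080294-50080513, plus strand) and Hsph1 (chr12:10427238-10427367, plus strand), the 2 called lower in both models.
Hspa8: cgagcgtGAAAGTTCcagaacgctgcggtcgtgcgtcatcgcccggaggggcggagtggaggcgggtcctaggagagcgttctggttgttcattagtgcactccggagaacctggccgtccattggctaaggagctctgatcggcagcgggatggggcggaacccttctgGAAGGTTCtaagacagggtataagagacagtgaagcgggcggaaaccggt
Hsph1: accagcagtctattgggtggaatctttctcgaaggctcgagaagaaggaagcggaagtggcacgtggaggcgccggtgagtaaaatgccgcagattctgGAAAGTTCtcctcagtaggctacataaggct
These matches are a description of the letters and were not tested against the changes below.

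Genes of fat synthesis and storage were among the largest rises shared by the models. Ranked by the smaller of both fold changes, the 6 leading named genes were Pnpla3, Pnpla5, Mbp, Fasn, Wfdc21 and Lrtm2. Pnpla3, a lipid droplet hydrolase that SREBP1c controls, stood at 0.128, 1.44 and 70.95 CPM (lowest, median and highest) in Control, 10.5, 90.2 and 472 in LPS and 54.96, 322 and 700.2 in Selfox. The highest control was Control 55, and 13 of the 17 model libraries lay above it and all above the other 5 controls. The log2 fold change was 3.56 ± 1.19 in LPS (adjusted p = 0.0476) and 4.6 ± 1.23 in Selfox (0.00762). Without Control 55 the average contrast grew from 4.08 to 7.44, and the call in both models was lost in 18 of the 23 fits that each left out 1 library. Pnpla5, its close relative, rose by 3.12 and 4.94 on the log2 scale. Every fold change given below is a log2 value, with LPS before Selfox where 2 stand together, and levels are in CPM, counts scaled to library size.

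The fatty acid synthase gene Fasn stood at 54.5, 123 and 1551 CPM in Control, 400.4, 1590.0 and 3595 in LPS and 404, 1319 and 2340.0 in Selfox. Control 55 lay within the range of both models, while the 5 other controls lay below every model library. Fasn was higher by 2.41 ± 0.74 in LPS and 1.98 ± 0.70 in Selfox, with an adjusted p of 0.023 in the average contrast. That call was lost without Control 41, Control 46, Control 49 or Control 52 (adjusted p 0.0545 to 0.0558), and the average of 2.2 became 3.86 without Control 55. Mbp, which encodes myelin basic protein, rose by 2.13 and 2.28, and Wfdc21, a small secreted protein of the whey acidic protein family, by 1.91 and 2.11. Lrtm2, a leucine-rich repeat membrane protein, rose by 1.91 and 2.72.

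The shared rises with the lowest p included enzymes and membrane proteins. Xpnpep2, a membrane aminopeptidase that can inactivate bradykinin, stood at 19.3, 29.1 and 35.9 CPM in Control, 67.5, 82.97 and 135 in LPS and 62.2, 83.6 and 112 in Selfox. All 17 model libraries lay above every control. It rose by 1.74 ± 0.18 in LPS and 1.64 ± 0.17 in Selfox (average adjusted p = 1.67e-06). Aldh9a1, an aldehyde dehydrogenase of carnitine synthesis, stood at 215, 224 and 249 CPM in Control, 299, 327 and 351 in LPS and 296, 345 and 371 in Selfox, again with no overlap, and rose by 0.51 and 0.57. Kank1, an adaptor that regulates actin and cell adhesion, stood at 13.6, 17.97 and 21.7 CPM in Control, 27.1, 39.5 and 48.8 in LPS and 35.4, 47.05 and 66.9 in Selfox, and Tas1r2, a subunit of the sweet taste receptor, at 169, 189.7 and 291 CPM in Control, 292, 323 and 404 in LPS and 319.7, 405 and 446 in Selfox. For neither gene did model and control libraries overlap, although Control 55, the highest control for Tas1r2, lay just under the lowest LPS library. Kank1 rose by 1.04 and 1.42, and Tas1r2 by 0.72 and 0.97. Abat, the enzyme that breaks down GABA, rose by 0.55 and 0.83, and Bhmt2, a homocysteine methyltransferase, by 0.44 and 0.68.

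Such separation was rare. For 87 genes (0.577% of those tested) every one of the 17 model libraries lay above every control, and for 78 genes (0.517%) every one lay below.

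Enzymes and carriers of fatty acid breakdown were among the largest shared falls. Fabp7, a fatty acid binding protein, stood at 164, 273 and 482 CPM (lowest, median and highest) in Control, 35.4, 52.2 and 75.2 in LPS and 30.4, 64.1 and 93.6 in Selfox. No model library reached the lowest control. It fell, with log2 fold changes of -2.51 ± 0.27 in LPS and -2.28 ± 0.24 in Selfox (average adjusted p = 5.7e-07). Ech1, which moves double bonds during fatty acid oxidation, stood at 82.3, 306 and 360.2 CPM in Control, 44.2, 70.5 and 84.4 in LPS and 43.2, 62.95 and 82.7 in Selfox, and 15 of the 17 model libraries lay below Control 55, the lowest control, and all below the other 5. Ech1 fell, with log2 fold changes of -2.04 ± 0.26 and -2.1 ± 0.23. Vnn1, a PPARa-responsive pantetheinase, stood at 31.6, 68.9 and 98.9 CPM in Control, 4.30, 6.10 and 29.9 in LPS and 7.63, 12.8 and 22.2 in Selfox, and all 17 model libraries lay below every control. Its fall was -2.54 ± 0.42 in LPS and -2.19 ± 0.37 in Selfox.

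Ephx2, the soluble epoxide hydrolase that breaks down epoxides of fatty acids, had the largest shared fall of the genes the rule names, -3.16 ± 0.76 in LPS and -2.84 ± 0.66 in Selfox (average adjusted p = 0.000802). Its levels were 4.94, 134 and 212 CPM in Control, 2.48, 3.64 and 32.6 in LPS and 4.23, 21.8 and 32.4 in Selfox. The control at 4.94 CPM was again Control 55, so only 5 of the 17 model libraries lay below every control, though all 17 lay below the other 5. Cyp4a2, which hydroxylates the end carbon of fatty acids, fell, with log2 fold changes of -2.83 and -1.88, Eci1, another double-bond isomerase, with -1.91 and -2.04, and Acot2, a mitochondrial acyl-CoA thioesterase, with -2.02 and -1.75. Outside fat metabolism, Cdc25a, the phosphatase that activates cyclin-dependent kinases, stood at 9.05, 11.5 and 12.3 CPM in Control, 5.33, 6.86 and 7.35 in LPS and 4.33, 5.92 and 7.43 in Selfox. Its model and control libraries did not overlap, and it fell, with log2 fold changes of -0.71 and -0.89. Cyp4a genes resemble each other, so their reads may be split. Vwa8, a mitochondrial ATPase, fell, with log2 fold changes of -1.09 and -0.93.

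**Figure D2:**
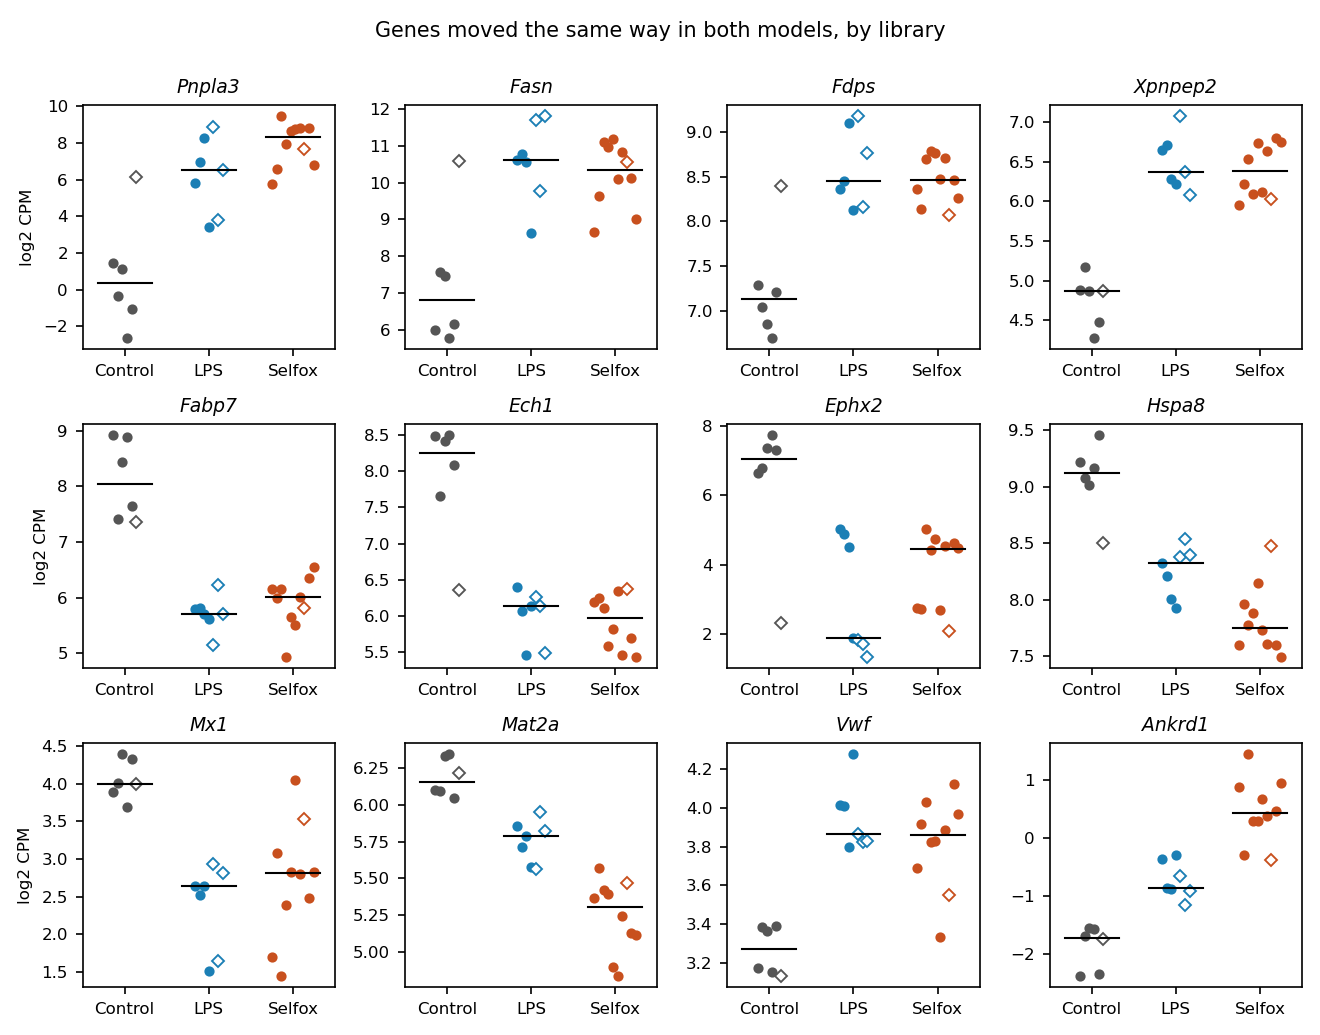
Log2 CPM of 12 genes called in both models with the same sign, 1 point per library, with the group median as a black line. Open diamonds are the 5 libraries in which the clock gene Dbp exceeded Arntl, and the one among the controls is Control 55, which lies with the models for Pnpla3, Fasn, Fdps and Ephx2 and with the other controls for Xpnpep2, Mx1, Mat2a, Vwf and Ankrd1.

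Depth and clock phase differed between libraries. Controls held 31.9 to 53.8 M counts and the model libraries 65.1 to 79.2 M, so depth and disease model cannot be told apart, although thinning all libraries to the lowest total left 3001 calls, of which 2886 were among the 3561. Albumin took 6.76% to 16.4% of counts in every library, a check of the tissue label. The clock output gene Dbp exceeded its antiphase partner Arntl in Control 55, in LPS 5, 6 and 7, and in Selfox 8, termed late-clock libraries here. Without Control 55 the average contrast called 3917 genes and without Control 49 it called 2512, the extremes of the 23 left-out fits. Of the genes whose RNA is retained in the nucleus or marks RNA quality, 0 of 9 were called in the average contrast, with a summed level of 1348 to 1479 CPM in Control, 1354 to 1531 in LPS and 1213 to 1536 in Selfox.

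Gene lists showed which functions the shared response touched. The lists were chosen with earlier results of these data known, so the counts describe and do not test them, and each is to be read against the 11.4% of genes called higher and 12.2% called lower.

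Synthesis of fatty acids and triglycerides was higher in both models. Of 20 genes tested 14 rose and 1 fell in the average contrast, and 13 rose in each model. The list's median was 1.00 in LPS and 1.23 in Selfox, against 0.0058 and 0.0115 for all genes. Scd, the desaturase that makes monounsaturated fatty acids, stood at 474, 939.9 and 3718 CPM in Control, 1001, 6383 and 7888 in LPS and 7473, 9374 and 22460.0 in Selfox. All Selfox libraries and 5 of 7 LPS libraries lay above every control. Scd rose by 1.9 ± 0.49 and 3.09 ± 0.50, and the average adjusted p was 0.000778. Acacb, whose product malonyl-CoA blocks fatty acid entry into mitochondria, stood at 16.9, 19.6 and 62.8 CPM in Control, 37.98, 112 and 156 in LPS and 84.3, 124 and 189 in Selfox, and rose by 1.83 ± 0.35 and 2.32 ± 0.34. Slc25a1, the mitochondrial citrate carrier that supplies carbon for synthesis, rose by 0.62 and 0.77, and Acss2, which makes acetyl-CoA from acetate, by 1.59 and 1.67. The number that rose in each model was 7 without Control 40, Control 41 or Control 49.

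Cholesterol synthesis showed the same direction with smaller steps. In the average contrast 15 of 25 genes rose and 0 fell, and 12 rose in each model. Pmvk, which phosphorylates mevalonate phosphate, stood at 13.4, 16.9 and 24.8 CPM in Control, 25.9, 46.8 and 57.02 in LPS and 25.7, 48.9 and 53.8 in Selfox. Every model library lay above every control. It rose by 1.28 ± 0.21 in LPS and 1.36 ± 0.20 in Selfox (average adjusted p = 4.76e-05). Fdps, which makes farnesyl diphosphate, stood at 104, 140.5 and 337 CPM in Control, 279, 350.3 and 579 in LPS and 269, 353 and 442 in Selfox. The highest control, Control 55 at 337 CPM, exceeded 7 of the model libraries, and the other 5 controls lay below all 17. Fdps rose by 1.28 ± 0.24 and 1.12 ± 0.22. Dhcr7, the last enzyme of the pathway, rose by 1.19 and 1.2, and Ebp, a sterol isomerase, by 0.50 and 0.59. Without Control 55 the list count was 20 of 25, the same as without the 5 late-clock libraries, and in the left-out fits it ran from 11 to 20.

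Of the fatty acid oxidation and PPARa target genes 16 of 27 fell and 0 rose, and 14 fell in each model. The list's median was -0.55 in LPS and -0.33 in Selfox. Cpt2, which releases fatty acids from carnitine inside mitochondria, stood at 107, 144 and 196 CPM in Control, 49.2, 60.6 and 84.9 in LPS and 51.7, 73.02 and 98.8 in Selfox. No model library reached the lowest control. Cpt2 fell, with log2 fold changes of -1.2 ± 0.16 and -1.02 ± 0.15 (average adjusted p = 9.91e-06). Hadhb, a subunit of the mitochondrial trifunctional protein, fell, with log2 fold changes of -0.92 and -0.87, and Cyp4a1 with -2.19 and -1.57.

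Control 55 moved with these lists. Its median deviation from the other controls was 1.26 for lipogenesis, 0.90 for cholesterol synthesis and -0.51 for fatty acid oxidation, each in the direction of the models. Without it the counts were 14 of 20 higher for lipogenesis and 18 of 27 lower for fatty acid oxidation.

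**Figure D3:**
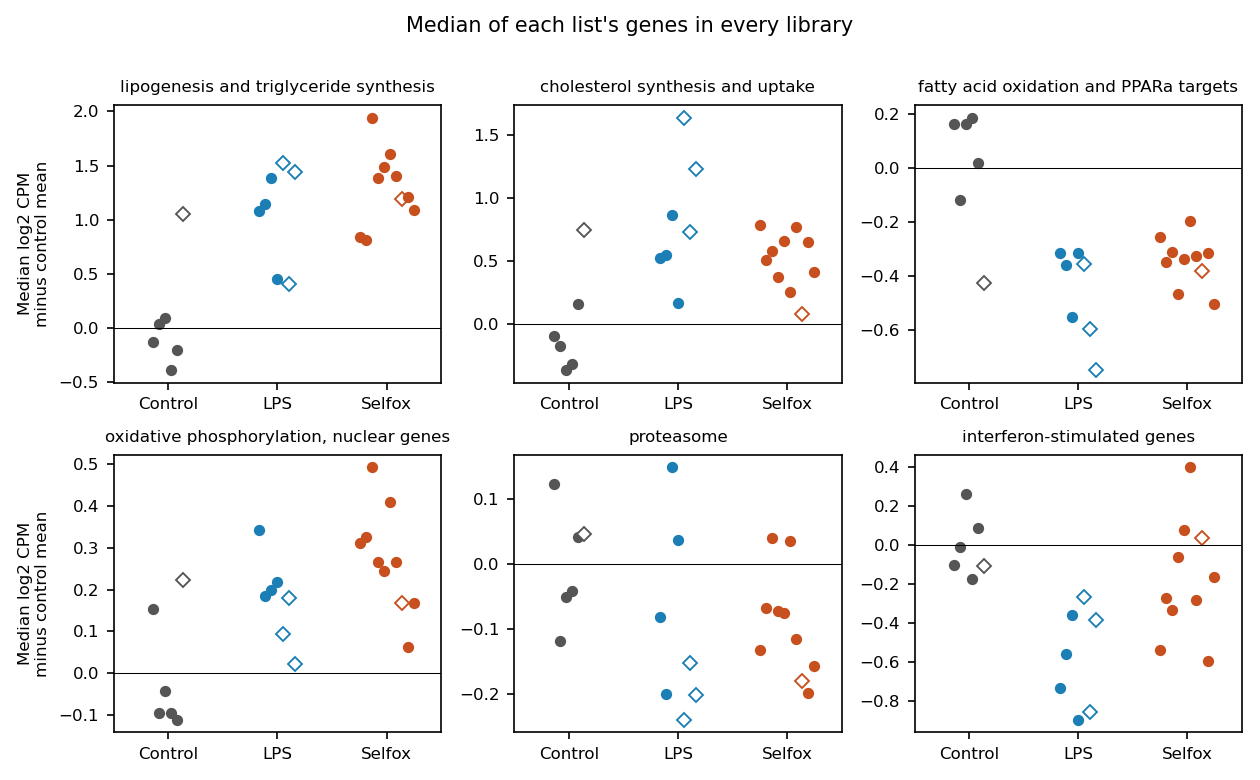
Median over the genes of a list of log2 CPM minus the control mean, 1 point per library, for 6 lists. Open diamonds are the late-clock libraries. For lipogenesis the model libraries run from 0.407 to 1.94 and the controls from -0.39 to 1.05, the latter being Control 55, while for the proteasome all 3 groups overlap.

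Other genes of lipid transport moved in both directions. Among 16 lipid droplet genes 2 rose and 5 fell. Fitm2, which helps droplets form at the endoplasmic reticulum, fell, with log2 fold changes of -0.81 and -0.96, and Mgll, which hydrolyses monoglycerides, with -0.77 and -0.54. Of 23 apolipoprotein and VLDL genes 5 rose and 8 fell. Apoa2, an HDL apolipoprotein, stood at 252, 335 and 396 CPM in Control, 439, 505 and 804 in LPS and 431, 493 and 574 in Selfox, with no overlap between models and controls, and rose by 0.74 and 0.62. Lcat, which esterifies HDL cholesterol, fell, with log2 fold changes of -0.37 and -0.47. Apoa1, the main HDL apolipoprotein, fell in Selfox (-1.02, adjusted p = 3.32e-05) and had -0.40 in LPS (0.0992), a difference between the models that passed the test (0.00492).

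Of 21 bile acid genes 4 rose and 3 fell. Cyp7b1, an oxysterol hydroxylase of the alternative pathway, stood at 2.14, 4.01 and 6.79 CPM in Control, 7.17, 8.89 and 12.6 in LPS and 8.48, 10.3 and 15.1 in Selfox, with every model library above every control, and rose by 1.12 ± 0.21 and 1.36 ± 0.20. Cyp8b1, which directs synthesis to cholic acid, had -0.58 in LPS and -1.53 in Selfox and fell in the average contrast with -1.06 ± 0.28 (adjusted p = 0.00939), or with -1.64 without the late-clock libraries. Nr0b2, the small heterodimer partner that bile acids induce, had -0.05 in LPS and -1.95 in Selfox, and its average call (adjusted p = 0.0104) was lost without Control 46 (-0.79, adjusted p = 0.0528).

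Nuclear genes of the respiratory chain were higher by small steps. Of 31 tested 30 had a higher sign in both models, 12 rose in the average contrast, 7 rose in each model and 0 fell. Ndufv2, a complex I subunit, stood at 61.4, 72.7 and 96.2 CPM in Control, 98.6, 101 and 117 in LPS and 82.7, 99.9 and 120.4 in Selfox. All LPS libraries and 8 of 10 Selfox libraries lay above every control. It rose by 0.49 ± 0.10 and 0.43 ± 0.10 (average adjusted p = 0.000775). Uqcrc1 and Uqcrb, of complex III, rose by 0.32 and 0.31 in the average contrast, and Sdhb, of complex II, by 0.48. The list's count varied from 7 without Control 49 to 22 without Control 55, and it was 28 without the late-clock libraries. Control 55 lay 0.27 above the other controls in the list's median.

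Of 31 cytosolic ribosomal protein genes 11 rose and 0 fell, a count that ran from 3 without Control 49 to 17 without Control 40, and 1 rose in each model. Against Control 17 rose in LPS and 1 in Selfox. The gene called in both was Rpl19, a large-subunit protein, at 0.35 and 0.24. The list's median was 0.32 in LPS and 0.10 in Selfox. Many ribosomal protein genes have near-identical pseudogenes, so their counts are uncertain.

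Protein folding and removal genes were lower. Of 27 proteasome genes 11 fell and 0 rose, 7 fell in each model, and the list's median was -0.08 in LPS and -0.09 in Selfox. Psmc5, an ATPase of the cap that unfolds substrates, stood at 50.3, 56.05 and 58.6 CPM in Control, 38.5, 43.3 and 49.5 in LPS and 40.7, 43.5 and 49.4 in Selfox. Model and control libraries did not overlap although the step was small, -0.33 ± 0.06 in LPS and -0.35 ± 0.06 in Selfox (average adjusted p = 0.000113). Other cap subunits, Psmd12, Psmc2 and Psmc4, fell, with log2 fold changes of -0.29, -0.29 and -0.26 in the average contrast. The list count was 6 without Control 52, with 2 falling in each model.

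Among 11 heat shock genes 4 fell and 0 rose, and 3 fell in each model, in every left-out fit. Hspa8, the constitutive HSP70 chaperone, stood at 362, 557 and 701 CPM in Control, 244, 320.4 and 371 in LPS and 179.9, 216 and 355 in Selfox. Of the 17 model libraries 16 lay below every control. Hspa8 fell, with log2 fold changes of -0.83 ± 0.15 in LPS and -1.24 ± 0.14 in Selfox (average adjusted p = 9.23e-06). Hsph1, its nucleotide exchange partner, stood at 55.9, 108 and 128 CPM in Control, 40.6, 47.1 and 64.03 in LPS and 33.9, 49.8 and 70.2 in Selfox. The lowest control was Control 55 at 55.9 CPM, and the other controls lay above all model libraries. Hsph1 fell, with log2 fold changes of -1.04 and -1.06, and Hsp90ab1, the constitutive HSP90, with -0.48 and -0.50. Hspa8 and Hsph1 are the genes whose promoters, with the paired heat shock word, are printed above.

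Of 24 unfolded protein response genes 8 fell and 0 rose in the average contrast, and 3 fell in each model. In LPS 3 fell and in Selfox 9 fell. Creld2, a chaperone induced by endoplasmic reticulum stress, stood at 34.8, 37.5 and 49.8 CPM in Control, 14.9, 21.1 and 32.7 in LPS and 18.3, 23.9 and 38.6 in Selfox. All LPS libraries and 9 of 10 Selfox libraries lay below every control. It fell, with log2 fold changes of -0.85 ± 0.17 and -0.67 ± 0.16. Hyou1 and Hspa5, chaperones of the endoplasmic reticulum, fell, with log2 fold changes of -0.44 and -0.31 in the average contrast. Trib3, a pseudokinase of the integrated stress response, fell in Selfox (-1.52) and had -0.53 in LPS (adjusted p = 0.244). The list count was 5 without Control 46.

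**Figure D4:**
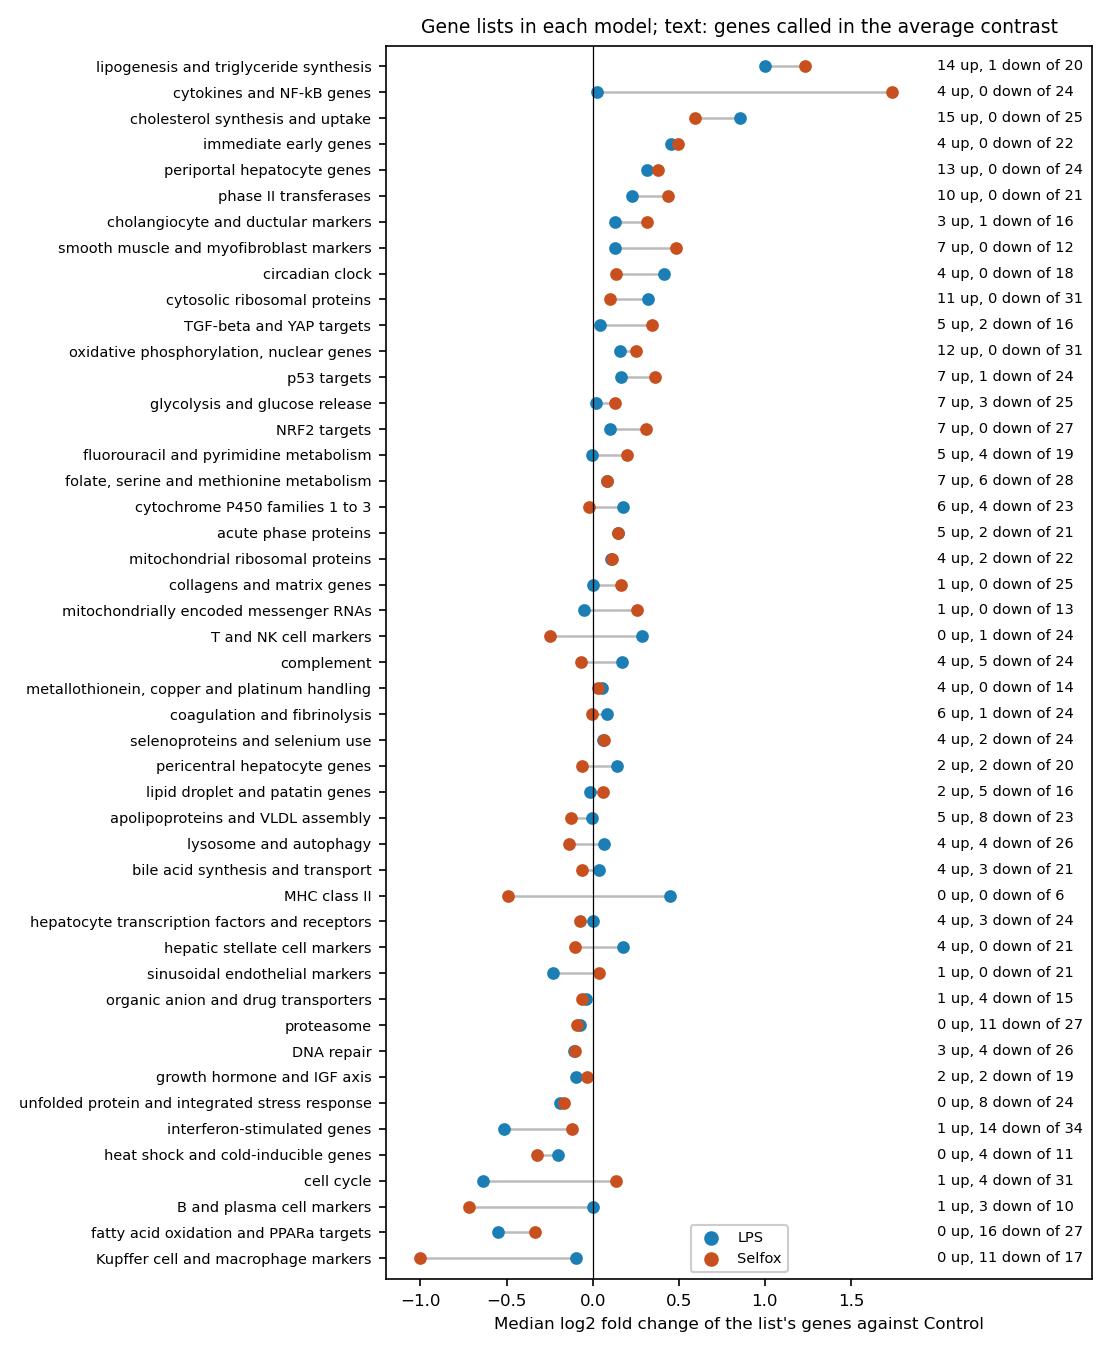
Median log2 fold change against Control of the genes of each list in LPS (blue) and Selfox (orange), for 47 of the 56 lists, with the number of genes called higher and lower in the average contrast at the right. Lipogenesis, cholesterol synthesis and fatty acid oxidation have both models on the same side of 0, whereas MHC class II, cell cycle and T and NK cell markers have them on opposite sides.

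Urea cycle and amino acid genes of the periportal zone were higher. Of 24 genes 13 rose and 0 fell, and 9 rose in each model. Ass1, the argininosuccinate synthase of the urea cycle, stood at 729.6, 1159 and 1377 CPM in Control, 1475, 1704 and 1926 in LPS and 1522, 2006 and 2174 in Selfox. The model libraries all lay above every control. It rose by 0.61 ± 0.12 and 0.77 ± 0.11 (average adjusted p = 8.3e-05). Gls2, the liver glutaminase, rose by 0.57 and 0.64, Uroc1, of histidine breakdown, by 0.51 and 0.51, and Sdsl, a serine dehydratase-like enzyme, by 0.42 and 0.69. Among 20 pericentral genes 2 rose and 2 fell. In liver tissue, a change in the share of cells and a change in the RNA of each cell cannot be told apart, here and for every cell marker below.

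One-carbon metabolism was split. Of 28 folate, serine and methionine genes 7 rose and 6 fell, and 5 rose and 4 fell in each model. Aldh1l1, which oxidises formyl folate, stood at 114, 124 and 146 CPM in Control, 162, 232 and 292 in LPS and 224, 367 and 562 in Selfox. Model and control libraries did not overlap, and Aldh1l1 rose by 0.82 ± 0.16 in LPS and 1.63 ± 0.16 in Selfox. Mat2a, which makes S-adenosylmethionine outside the adult liver isoform, stood at 65.9, 71.3 and 80.9 CPM in Control, 47.4, 55.2 and 61.6 in LPS and 28.6, 39.6 and 47.6 in Selfox. Mat2a fell with -0.43 ± 0.10 and -0.93 ± 0.09, without overlap between models and controls. For both genes the step in Selfox was larger than in LPS (adjusted p of the difference 0.000561 and 0.000711). Sardh, which demethylates sarcosine, rose by 0.73 and 0.77, and Atic, of purine synthesis, fell, with log2 fold changes of -0.53 and -0.47. In pyrimidine metabolism, Upb1, the last enzyme of pyrimidine and fluorouracil breakdown, rose by 0.51 and 0.72. Cad and Ctps1, which build pyrimidine nucleotides, fell, with log2 fold changes of -0.66 and -0.90 in LPS and with -0.55 and -0.50 in Selfox.

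Sugar handling genes moved in both directions. Of 25 genes 7 rose and 3 fell, and 7 rose in each model, or 2 without Control 49 or Control 52. Slc2a2, the liver glucose transporter, rose by 0.67 and 0.54, and Khk, which phosphorylates fructose, by 0.49 and 0.64. Pc, pyruvate carboxylase, the first enzyme of glucose synthesis from pyruvate, fell, with log2 fold changes of -0.48 and -0.30. Insr, the insulin receptor, rose by 0.41 and 0.31, and Igfals, which carries IGF1 in serum, fell, with log2 fold changes of -0.53 and -0.38.

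Conjugating enzymes were higher. Of 21 phase II transferases 10 rose and 0 fell, with 5 up in each model. Gsta4 and Gstk1, glutathione transferases, rose by 0.55 and 0.37 in the average contrast, and Sult1a1, a phenol sulfotransferase, by 0.58. Nfe2l2, which encodes NRF2, rose by 0.77 and 0.92. Of 27 NRF2 target genes 7 rose and 0 fell, 2 of them in each model. Tkt, transketolase, rose by 0.84 and 0.93. Among 23 cytochrome P450 genes of families 1 to 3 6 rose and 4 fell. Cyp2d5 fell, with log2 fold changes of -0.52 and -0.48, and Cyp2b2, which responds to the receptor CAR, fell with -2.65 in LPS and had -0.98 in Selfox (adjusted p = 0.0521). Members of one P450 subfamily resemble each other in sequence, so reads may be split between them. Slc22a8, an organic anion transporter, fell, with log2 fold changes of -0.67 and -0.46.

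Of 24 selenoprotein and selenium-use genes 4 rose and 2 fell. Scly, which releases selenium from selenocysteine, rose by 0.52 and 0.59, and Selenok, a selenoprotein of the endoplasmic reticulum, by 0.39 and 0.50. Dio1, the deiodinase that activates thyroid hormone and is itself a selenoprotein, fell, with log2 fold changes of -0.51 and -0.55.

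Of 18 clock genes 4 rose and 0 fell in the average contrast, and 2 rose in each model. In LPS alone 3 rose and 0 fell, and in Selfox 3 rose and 4 fell. For 6 genes the sign was higher in LPS and lower in Selfox, against 12.6% of all genes tested. All 6 had a called difference between the models, against 633 of all 15079 genes. Of the 5 late-clock libraries 3 were LPS and 1 was Selfox. Bhlhe40, a clock repressor, rose by 1.47 and 1.13. Without the late-clock libraries its rise in the average contrast was 1.5, from 1.3.

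Of 34 interferon-stimulated genes 14 fell and 1 rose in the average contrast, and 7 fell in each model. In LPS 15 fell and 1 rose, and in Selfox 7 fell and 2 rose. The list median of each library over the control mean was -0.18 to 0.26 in Control, -0.90 to -0.27 in LPS and -0.60 to 0.40 in Selfox, so LPS lay below every control and Selfox overlapped them. Mx1, an antiviral GTPase, stood at 12.9, 16.00 and 20.9 CPM in Control, 2.82, 6.19 and 7.60 in LPS and 2.68, 6.98 and 16.5 in Selfox. All LPS libraries and 9 of 10 Selfox libraries lay below every control. Mx1 fell, with log2 fold changes of -1.6 ± 0.33 and -1.18 ± 0.29 (average adjusted p = 0.000741). Oas1b, of the oligoadenylate synthase family, stood at 4.36, 5.98 and 8.74 CPM in Control, 1.01, 1.78 and 2.85 in LPS and 0.974, 2.88 and 6.70 in Selfox. It fell, with log2 fold changes of -1.76 ± 0.32 and -1.11 ± 0.28, again with 1 Selfox library inside the control range. Irf9, which carries the interferon signal to the nucleus, fell, with log2 fold changes of -0.81 and -0.42, and Oasl2 with -0.89 and -0.63. The count that fell in each model was 12 without Selfox 6 and 4 without Control 46. In 5 other members the signs were opposite and the models differed, among them Cxcl10 described with those genes.

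Secreted liver proteins gave mixed counts. Of 21 acute phase genes 5 rose and 2 fell. Orm1, the acid glycoprotein, rose by 1.00 and 1.15, though it lost the call in one model or the other in 15 of 23 left-out fits. Cp, the copper carrier ceruloplasmin, rose by 0.64 and 0.45. Serpina1, an antiprotease, and Alb, albumin, fell in the average contrast with -0.24 ± 0.06 and -0.39 ± 0.11, the latter not past the test without Control 40 (-0.29, adjusted p = 0.0734). Of 24 coagulation genes 6 rose and 1 fell, a count of rises that was 3 without Control 49. In each model 2 rose and 0 fell, while LPS alone had 4 rises and 0 falls and Selfox 5 rises and 5 falls. Kng1, kininogen, rose by 1.63 ± 0.30 in LPS and had 0.20 in Selfox, and its average of 0.91 was 0.59 without the late-clock libraries. Its reads may be split with the related rat T-kininogens. Of 24 complement genes 4 rose and 5 fell in the average contrast, and 3 rose and 0 fell in each model. In LPS 5 rose and 0 fell, and in Selfox 4 rose and 6 fell. For 10 the sign was higher in LPS and lower in Selfox, against 12.6% of all genes tested. Of these 10, 3 had a called difference between the models.

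Few vessel genes were called in the average contrast. Of 21 sinusoidal endothelial markers 1 rose and 0 fell in the average contrast and 0 rose in each model. Their summed level was 592.9 to 698 CPM in Control, 346 to 683 in LPS and 578.9 to 725 in Selfox, with all 3 groups overlapping. Of 18 vascular endothelial markers 1 rose and 2 fell. The rise was Vwf, the platelet-binding factor that sinusoidal cells carry little of. Vwf stood at 8.73, 9.65 and 10.4 CPM in Control, 13.9, 14.5 and 19.3 in LPS and 10.1, 14.5 and 17.4 in Selfox. All LPS libraries and 9 of 10 Selfox libraries lay above every control. It rose by 0.69 ± 0.11 in LPS and 0.56 ± 0.10 in Selfox (average adjusted p = 7.96e-05). The falls were Sox17 and Gja4, an arterial transcription factor and gap junction protein, at -1.08 and -0.71 in Selfox, with -0.40 and -0.18 in LPS that did not pass (adjusted p = 0.129 and 0.432).

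Contractile genes of vessel walls and myofibroblasts were higher. Of 12 markers 7 rose and 0 fell, 3 rose in LPS, 7 rose in Selfox and 2 rose in each model. Tpm1, a tropomyosin, stood at 37.9, 42.01 and 44.5 CPM in Control, 50.7, 56.2 and 70.5 in LPS and 47.7, 58.3 and 70.3 in Selfox. All model libraries lay above every control. It rose by 0.47 ± 0.09 and 0.49 ± 0.08. Myl9, a myosin light chain, rose by 0.49 in the average contrast. Acta2, smooth muscle actin, rose by 1.29 ± 0.16 in Selfox and had 0.18 ± 0.17 in LPS (adjusted p = 0.495), a difference that passed the test (2.66e-05). Summed, the list stood at 186 to 204 CPM in Control, 226 to 264 in LPS and 217 to 282 in Selfox, so every model library exceeded every control.

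Ankrd1, a target of the mechanosensitive factor YAP, stood at 0.161, 0.274 and 0.313 CPM in Control, 0.42, 0.518 and 0.791 in LPS and 0.737, 1.31 and 2.68 in Selfox. All 17 model libraries lay above every control at this low level, and Ankrd1 rose by 1.24 ± 0.29 and 2.55 ± 0.28, more in Selfox (adjusted p = 0.000499). Ctgf, another YAP and TGF-beta target, rose by 0.87 and 1.31, and Tgfbr1, a TGF-beta receptor, fell, with a log2 fold change of -0.41 in the average contrast. Collagens and matrix genes showed 1 rise and 0 falls among 25 in the average contrast, and stellate cell markers 4 rises and 0 falls among 21. In neither list did a gene rise in each model. Of the collagens and matrix genes 6 rose and 0 fell in Selfox, and 0 rose and 1 fell in LPS. For 7 of these 25 the sign was lower in LPS and higher in Selfox, against 13.1% of all genes tested. Of the 7, 6 had a called difference between the models, against 614 of all 15079 genes. Of the stellate cell markers 4 rose and 4 fell in Selfox, and 1 rose and 0 fell in LPS. Epcam, a surface protein of bile duct cells, stood at 4.81, 6.22 and 8.46 CPM in Control, 9.11, 10.5 and 14.1 in LPS and 9.04, 11.2 and 14.6 in Selfox. Models and controls did not overlap, and Epcam rose by 0.71 ± 0.14 and 0.83 ± 0.14. The other cholangiocyte markers gave 2 rises and 1 fall among 15.

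Some genes of DNA damage and cell division were called in both models. Of 24 p53 targets 7 rose and 1 fell, 3 in each model: Sesn1, a stress-induced sestrin, at 0.62 and 0.82, Rrm2b, a ribonucleotide reductase subunit, at 0.39 and 0.58, and Phlda3, an AKT inhibitor, at 0.60 and 0.74. The calls of Rrm2b and Phlda3 in both models were lost in 6 and 10 of 23 left-out fits. Cdk2, the kinase of S phase entry, stood at 12.3, 13.8 and 15.8 CPM in Control, 8.14, 10.2 and 12.2 in LPS and 7.14, 8.62 and 9.97 in Selfox. Model and control libraries did not overlap, and Cdk2 fell, with log2 fold changes of -0.43 ± 0.09 and -0.70 ± 0.08. Mcm7, of the replicative helicase, fell, with log2 fold changes of -0.46 and -0.75. Ccne1, the cyclin partner of Cdk2, fell in Selfox (-1.77) and had -0.79 in LPS (adjusted p = 0.078), and Tyms, the target of fluorouracil, rose by 0.80 in Selfox with 0.05 in LPS (0.794).

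An average contrast can also be carried by 1 model. Of 17 Kupffer cell and macrophage markers 11 fell in the average contrast, 12 fell in Selfox and 0 fell in LPS, and 0 fell in each model. Marco, a scavenger receptor, stood at 59.1, 88.3 and 113 CPM in Control, 65.6, 68.97 and 79.96 in LPS and 7.65, 11.1 and 13.6 in Selfox. Every Selfox library lay far below the controls while the LPS libraries lay within their range. The log2 fold change was -0.23 ± 0.15 in LPS (adjusted p = 0.316) and -2.94 ± 0.14 in Selfox, and the difference passed the test (2.41e-12). Vsig4, a complement receptor, had -0.01 and -2.03, Clec4f, a lectin, -0.39 and -1.68, and Cd5l, a macrophage secreted protein, -0.03 and -1.26. C1qb, of the complement starter C1q that macrophages make, had -0.10 and -1.0. The summed level of the list was 1009 to 1334 CPM in Control, 822 to 1282 in LPS and 515 to 687 in Selfox, so Selfox lay below every control and LPS overlapped them.

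Genes of opposite signs were few once each model had to pass against the same controls, which favours the same sign. For 1247 of the 3879 opposite-sign genes the Selfox and LPS libraries differed from each other (8.27% of all genes tested), 633 with LPS higher and 614 with LPS lower. Only 14 were also called in each model against Control. The 9 higher in LPS and lower in Selfox were Adgre1, Siglec5, Siglec10, Art4, RT1-Ba, RT1-Da, Dnase2, Rev1 and Vcpip1, and the 5 lower in LPS and higher in Selfox were Mme, Akr1b8, Cd46, Loxl2 and Col4a5. Siglec10, Art4, Vcpip1, Akr1b8 and Cd46 are outside the naming rule and are listed for completeness.

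Several of the 9 are genes of macrophages and antigen-presenting cells. Most macrophage markers did not share this pattern. Of 17 Kupffer cell and macrophage markers only Adgre1 had the higher sign in LPS and the lower in Selfox. Another 13 had the lower sign in both models, against 36% of all genes tested. Adgre1, which encodes the macrophage surface receptor F4/80, stood at 31.6, 36.6 and 57.6 CPM in Control, 37.5, 62.2 and 93.7 in LPS and 13.7, 16.6 and 21.5 in Selfox. Of the LPS libraries 5 of 7 lay above every control and all 10 Selfox libraries lay below. It rose by 0.68 ± 0.18 in LPS (adjusted p = 0.0132) and fell, with a log2 fold change of -1.26 ± 0.16 in Selfox (1.1e-05). RT1-Ba, a chain of the rat MHC class II molecule, stood at 46.02, 57.4 and 71.3 CPM in Control, 69.4, 79.2 and 120.5 in LPS and 20.1, 42.5 and 51.2 in Selfox. In LPS 6 of 7 libraries lay above every control, and in Selfox 6 of 10 lay below. It rose by 0.58 ± 0.18 and fell, with a log2 fold change of -0.53 ± 0.16. RT1-Da, another class II chain, had 0.48 and -0.50. Of 6 MHC class II genes tested 5 had the higher sign in LPS and the lower in Selfox, and all 5 of these differed between the models, although 0 rose and 0 fell in the average contrast. MHC genes resemble each other and vary between rats, so their reads may be split. Siglec5, a sialic acid receptor of myeloid cells, had 0.68 and -0.93, Dnase2, the lysosomal nuclease, 0.29 and -0.34, and Rev1, a translesion polymerase, 0.33 and -0.35. Without the late-clock libraries 2 of the count of 9 were left in number, and without Control 41, Control 46, Control 52 or LPS 7 there were 3.

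Many T and NK cell genes also had opposite signs. Of 24 T and NK cell markers 15 had the higher sign in LPS and the lower in Selfox, against 12.6% of all genes tested. Of these 15, 12 had a called difference between the models. Against Control 2 rose and 0 fell in LPS, 7 fell and 1 rose in Selfox, and 0 were called in both with opposite signs. Cd4, the helper T cell co-receptor, which rat macrophages carry too, stood at 20.2, 24.1 and 31.9 CPM in Control, 17.04, 29.7 and 32.2 in LPS and 9.73, 11.2 and 16.9 in Selfox. All Selfox libraries lay below every control and the LPS libraries around them. It had 0.05 ± 0.16 in LPS (adjusted p = 0.864) and fell, with a log2 fold change of -1.01 ± 0.15 in Selfox. The summed T and NK list stood at 52.8 to 67.0 CPM in Control, 54.4 to 85.3 in LPS and 38.0 to 54.4 in Selfox. Of 10 B and plasma cell markers 4 had the higher sign in LPS and the lower in Selfox, and 5 had the lower sign in both. The shares of all genes tested were 12.6% and 36%. In Selfox 6 of the 10 fell and 0 rose, and in LPS 0 fell and 1 rose. The median of these markers was 0.0043 in LPS and -0.72 in Selfox.

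Of 31 cell cycle genes 16 had the lower sign in LPS and the higher in Selfox, against 13.1% of all genes tested. Of these 16, 14 had a called difference, while 13 other genes had the lower sign in both. Against Control 10 fell and 0 rose in LPS, and 3 fell and 2 rose in Selfox. Mki67, the proliferation marker, stood at 3.06, 6.17 and 11.3 CPM in Control, 1.57, 2.68 and 6.21 in LPS and 4.83, 8.15 and 15.5 in Selfox. The groups overlapped, with 4 of 7 LPS libraries below every control and 2 of 10 Selfox libraries above. It fell, with a log2 fold change of -1.12 ± 0.33 in LPS (adjusted p = 0.025) and had 0.39 ± 0.30 in Selfox (0.355), and Selfox exceeded LPS by 1.51 ± 0.30 (adjusted p = 0.00178). Aurkb, a mitotic kinase, had -1.17 and 0.34.

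Enzymes of the matrix and the cell surface were among the reverse group. Mme, the membrane peptidase neprilysin, stood at 1.09, 2.05 and 5.14 CPM in Control, 0.325, 0.648 and 1.25 in LPS and 1.25, 7.13 and 16.1 in Selfox. LPS lay low and Selfox high, with 5 of 7 LPS libraries below and 7 of 10 Selfox libraries above every control. It fell, with a log2 fold change of -1.64 ± 0.51 in LPS (adjusted p = 0.0338) and rose by 1.64 ± 0.47 in Selfox (0.0121), so its average was 0.00. Loxl2, which crosslinks collagen, stood at 5.92, 6.60 and 8.49 CPM in Control, 3.06, 5.03 and 7.20 in LPS and 7.79, 10.3 and 13.6 in Selfox. In LPS 6 of 7 libraries lay below every control, and in Selfox 9 of 10 lay above. It fell in LPS (-0.46 ± 0.15) and rose in Selfox (0.61 ± 0.14). Col4a5, a basement membrane collagen, had -0.36 and 0.31, and Col4a2, of the same family, -0.19 and 0.62 with a difference between the models (0.81, adjusted p = 0.000558). The count of 5 ran from 1 without Control 46 to 8 without Control 55.

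Of 24 cytokine and NF-kB genes 16 rose and 1 fell in Selfox, and 1 rose and 0 fell in LPS. Opposite signs with a called difference were found for 9, of which 8 were lower in LPS and 1 was higher. Neutrophil markers moved with them, with 5 of 9 higher in Selfox and 1 in LPS. Their summed level was 4.73 to 13.4 CPM in Control, 4.59 to 144 in LPS and 5.55 to 129 in Selfox, and 1 marker was at 0 in every library. In Selfox 3, 4, 5, 8 and 10 the list median over the control mean was 1.74 to 3.64 for neutrophil markers and 1.32 to 2.93 for cytokines. In Selfox 1, 2, 7 and 9 it was -0.43 to 0.09 and -0.20 to 0.37, and in Selfox 6 it was 0.54 and 0.93. The part of neutrophils in the cytokine result was not tested. Cxcl10, an interferon-induced chemokine, stood at 1.59, 4.77 and 11.8 CPM in Control, 0.937, 1.71 and 3.53 in LPS and 3.41, 59.2 and 1054 in Selfox. The Selfox libraries spread widely, and 6 of 10 lay above every control, while 3 of 7 LPS libraries lay below. It rose by 5.68 ± 1.30 in Selfox and had -1.39 ± 1.12 in LPS (adjusted p = 0.438). Ccl4, a chemokine for leukocytes, had -0.15 and 3.54, Il1a, an alarm cytokine, -0.51 and 1.18, and Gbp2, an interferon-induced GTPase, -0.89 and 0.74.

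Within fat metabolism and complement a few genes had opposite signs and differed between the models. None of the genes named in this paragraph was called in both models against Control. Me1, which makes NADPH for lipogenesis, had -0.65 and 0.89, and Pparg, the fat-storage receptor, -0.53 and 0.99. Pltp, which moves phospholipids between lipoproteins, had 0.13 and -0.95, and Cfd, the complement protease adipsin, 0.28 and -1.21. In vessel cells Nos3, the endothelial nitric oxide synthase, had -0.10 and 0.42, and Thbd, thrombomodulin, 0.16 and -0.86. Of the mitochondrially encoded messenger RNAs 10 of 13 had the lower sign in LPS and the higher in Selfox, against 13.1% of all genes tested. The same pattern was seen in 1 of 31 nuclear genes of the respiratory chain. Of the 10, 5 had a called difference between the models, among them Mt-cyb, of complex III, at -0.24 and 0.26. Of the 13, 0 were called against Control in LPS and 6 rose in Selfox. The LPS median was near 0, at -0.05, and the Selfox median was 0.26.

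**Figure D5:**
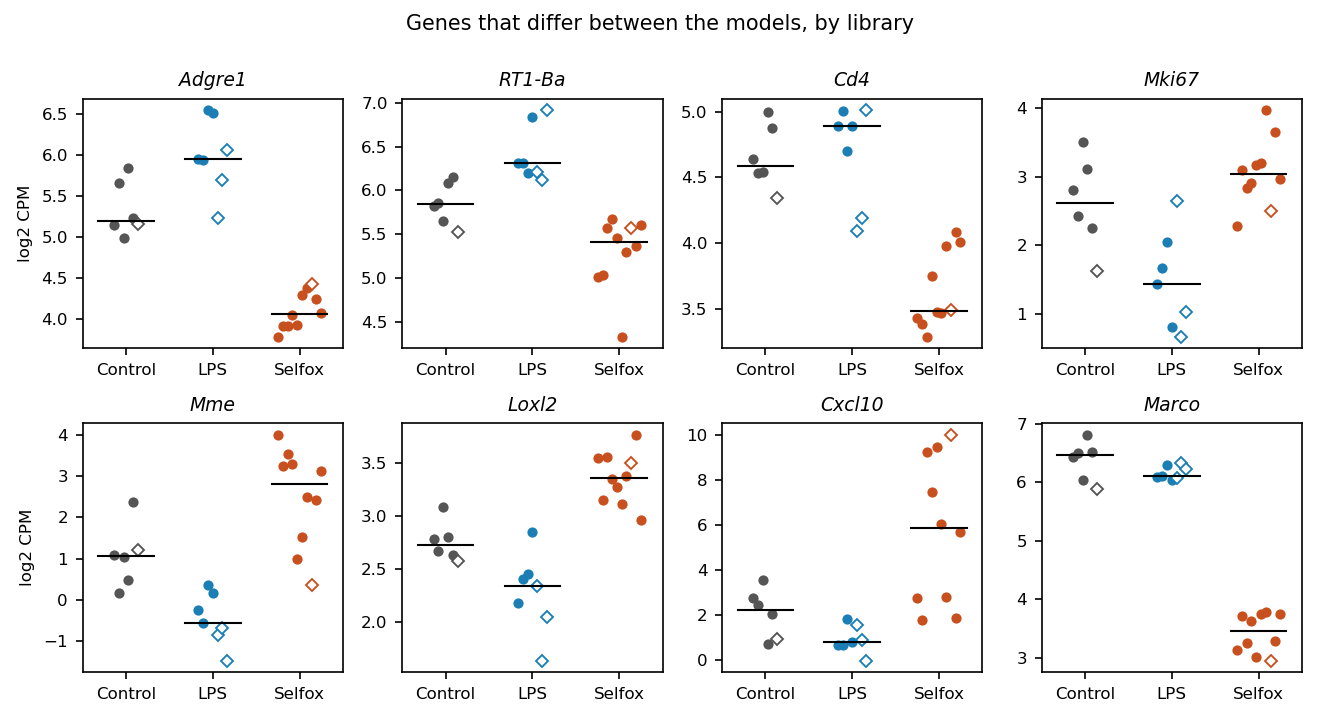
Log2 CPM of 8 genes that differed between the models, 1 point per library, with group medians as black lines and late-clock libraries as open diamonds. Adgre1 and RT1-Ba lie higher in LPS and lower in Selfox than in Control, Mme and Loxl2 the reverse, and Marco is low in Selfox only.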

How the data were processed

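Liver RNA of 23 libraries was made into TruSeq stranded mRNA libraries, per the labels' protocols. The deposited table holds whole-number counts per gene, made with FastQC, Trim Galore, STAR 2.7.9a and featureCounts of Subread 2.0.3, per the submitters' processing notes. Genome build, annotation and strand option: not given in the sources used here. Of counts from 1 to 9, 66.1% to 74.9% per library were even, so halved counts were an alternative. Of 28913 rows 21753 had counts, and filterByExpr (minimum count 10) left 15079 with 99.99% of counts. Levels are CPM after TMM scaling, taken to log2 with 2 as the prior count. A robust quasi-likelihood F test (edgeR 4.0.16, R 4.3.3, two-sided) with Benjamini-Hochberg adjustment at 0.05 was used, and the common biological coefficient of variation was 0.235. limma 3.58.1 and DESeq2 1.42.0 gave alternatives. Scripts were tested on simulated data. Members and 56 gene lists (1166 genes, 1096 matched by symbol, 13 by synonym, 57 with no row) were chosen with earlier results of these data known. Named genes were, at a mean log2 CPM of at least 1, the 6 per direction with the largest smaller fold change of both models, the 6 with the lowest p, the 6 per orientation among opposite signs, and per list up to 4 by adjusted p and 2 of opposite signs. Genes without a symbol or of unsure function were counted only. The motifs for the heat shock element and the peroxisome proliferator response element were chosen after values were seen. A few genes are not reported here.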

Additional observations from a re-analysis of the deposited data

Results flagged for a closer look

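In 9 of 123 groups of libraries, over 41 genes, the highest or lowest library stood apart from the others by Dixon's ratio, where chance gives about 1 group in 20. Control 55 was that library for Fasn (1551 CPM), Fdps (337 CPM), Tas1r2 (291 CPM), Ephx2 (4.94 CPM), Psmc5 (50.3 CPM) and Hsph1 (55.9 CPM), each time on the side of the models. The others were Selfox 8 for Pmvk (25.7 CPM), LPS 6 for Cdc25a (5.33 CPM) and Selfox 6 for RT1-Ba (20.1 CPM).

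For 50 of the 139 printed genes the difference between the models passed edgeR's test at a Benjamini-Hochberg adjusted p below 0.05, given here as the log2 fold change of Selfox minus LPS. Among genes called in the average contrast, Selfox was higher for Abat (0.28), Bhmt2 (0.24), Aldh1l1 (0.81), Cyp2b2 (1.67), Irf9 (0.40), Myl9 (0.29), Acta2 (1.11), Ankrd1 (1.31) and Tyms (0.74). Selfox was lower for Apoa1 (-0.62), Cyp8b1 (-0.95), Nr0b2 (-1.91), Hspa8 (-0.41), Trib3 (-0.99), Mat2a (-0.49), Serpina1 (-0.22), Sox17 (-0.68), Gja4 (-0.53), Marco (-2.71), Vsig4 (-2.02), Clec4f (-1.29), Cd5l (-1.23), C1qb (-0.90), Cdk2 (-0.27), Ccne1 (-0.99), Kng1 (-1.43), Cd4 (-1.06), Pltp (-1.08) and Cfd (-1.49).

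Among genes not called in the average contrast, Selfox was higher for Loxl2 (1.07), Col4a5 (0.66), Mme (3.28), Aurkb (1.51), Mki67 (1.51), Ccl4 (3.68), Cxcl10 (7.07), Il1a (1.69), Gbp2 (1.63), Me1 (1.54), Pparg (1.52), Mt-cyb (0.49), Nos3 (0.52) and Col4a2 (0.81). It was lower for Adgre1 (-1.95), Siglec5 (-1.60), Dnase2 (-0.63), RT1-Ba (-1.11), Rev1 (-0.67), RT1-Da (-0.98) and Thbd (-1.02).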

How the results depend on the processing

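The average contrast kept both counts within 1.5 times under every alternative run. Left-out fits gave 1148 to 1948 higher (lowest without Control 49) and 1364 to 1969 lower. Genes called higher in both models numbered 287 instead of 759 at an adjusted p below 0.01, and 467 to 1001 in left-out fits. Genes called lower in both numbered 1057 with limma voom and 268 at 0.01 instead of 684, and 460 to 884 in left-out fits, where Control 49, Control 52 and Control 55 gave the extremes. The 9 genes higher in LPS and lower in Selfox became 5 with upper-quartile factors, 5 at equal depth, 2 without the late-clock libraries and 1 at 0.01, and 3 to 9 in left-out fits. The 5 of the reverse kind became 2 with no filter, 13 with DESeq2, 9 in 2-group fits and 0 at 0.01, and 1 to 8 in left-out fits. Opposite-sign genes that differed between the models with LPS higher (633) became 395 without the late-clock libraries and 497 to 642 in left-out fits, and those with LPS lower (614) ran from 532 to 641. The cause of these moves was not tested. LPS 1 to 7 and Selfox 1 to 7 share replicate numbers, and the labels do not say that the numbers pair libraries. Of 7 same-numbered pairs 1 correlated over 0.1 (-0.0595 to 0.16), and 1 LPS library correlated best with its own number. Correlations of 7 pairs cannot decide whether more than the number is shared. On these 14 libraries alone the counts were 505 and 470 without a block, and 407 and 335 with a replicate block. No named value reversed. Controls had the lowest depth, which limits genes of low count most.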

Other observations

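Ephx2 took separate levels inside each group. Its log2 CPM was 6.65 to 7.72 in 5 controls and 2.31 in Control 55. In LPS 3 libraries stood at 4.52 to 5.03 and 4 at 1.32 to 1.88. In Selfox 6 libraries stood at 4.41 to 5.02 and 4 at 2.09 to 2.74. The late-clock libraries were all in the lower levels, together with LPS 4, Selfox 1, Selfox 2 and Selfox 6.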
